A study of Mus musculus with 24 samples.

Results

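The 34 genes described here encode the enzymes and carriers of the urea cycle and of amino acid breakdown in mouse liver. They were chosen by gene symbol from a list of pathway members and make up 34 of the 24015 genes in the deposited count table. The rule uses the symbols alone. The study dosed female B6C3F1 mice, bought at 5 to 6 weeks of age, by gavage with 8 mg/kg body weight of furan per day in corn oil or with corn oil alone for 21 days, and took the livers 4 h after the last dose. Each liver was divided into a fresh-frozen piece and a pair of pieces embedded in paraffin after formalin fixation (FFPE), 1 of them fixed for 18 h and the other for 3 weeks. Furan is a volatile liver toxicant that cytochrome P450 2E1 oxidises to a reactive dialdehyde. The comparisons ask how furan changed the transcripts in each kind of piece, and how each kind of FFPE piece differed from fresh-frozen liver in control mice.

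The groups were fresh-frozen control livers (animals 02, 04 and 06), fresh-frozen furan livers (41, 43 and 44), and for each fixation time 4 control (02, 03, 04 and 06) and 4 furan livers (41, 42, 43 and 44). Values are listed in that order of animals throughout. Fresh-frozen control 03 and furan 42 were not analysed here. The table has 2 more fresh-frozen columns, under animal numbers that no label gives, and whether they hold these livers was not settled, so the fresh-frozen groups stand at n = 3. Frozen RNA came from about 100 mg of tissue with a midi column kit. RNA of the 18 h pieces came from 1 section of 10 µm and that of the 3 wk pieces from 2 such sections, both with a kit made for FFPE tissue. The RNA integrity number, per the labels, was above 8.9 for frozen and 1.3 to 2.4 for FFPE RNA. Fixation, kit, number of sections and RNA integrity cannot be told apart in the comparisons of FFPE with fresh-frozen liver. The 3 furan comparisons use pieces of the same animals and are not independent replications of each other. Replicates within a group are different animals, so the p-values of the furan comparisons measure the spread between animals. The comparisons of FFPE with fresh-frozen liver, and the interactions below, hold pieces of the same animals on both sides. Their main fits treat these pieces as independent, and fits with the animal as a replicate block are given as an alternative.

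Amino acids that are not used for protein lose their nitrogen in the liver, and the urea cycle turns that nitrogen into urea. Carbamoyl phosphate and ornithine are joined in the mitochondrion, the product takes up aspartate in the cytosol, and arginine is then split into urea and ornithine. The carbon skeletons go down separate routes for tyrosine, tryptophan, histidine, proline, lysine, serine and methionine, most of them run by hepatocytes. Many of the urea cycle enzymes are most abundant in hepatocytes near the portal vein, whereas glutamine synthetase and Cyp2e1 mark those around the central vein.

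Fresh-frozen libraries held 33101755 to 58048387 counts, 18 h libraries 16269854 to 22494012 and 3 wk libraries 3666173 to 11780691, so values of the 3 wk pieces rest on the fewest counts. The 34 genes took 3.28% ± 0.35 (SD, n = 3) of the counts in fresh-frozen control and 3.25% ± 0.09 (SD, n = 3) in fresh-frozen furan livers. In FFPE control livers the share was 2.17% ± 0.29 (SD, n = 4) at 18 h and 2.16% ± 0.20 (SD, n = 4) at 3 wk. Ribosomal precursor RNA (Rn45s) took 0.129% to 0.520% of counts in fresh-frozen and up to 37.3% in FFPE libraries, the highest in 18 h control 06. With Rn45s left out of the total, the 34 genes took 2.97% to 3.66% in fresh-frozen controls. They then took 2.41% to 2.775% in 18 h controls, the highest in control 06, and 2.15% to 2.60% in 3 wk controls. The summed level of 9 hepatocyte genes, albumin among them, lay between 140100 and 147800 CPM in fresh-frozen control and between 140600 and 149600 CPM in fresh-frozen furan livers. CPM, the unit of levels here, are counts scaled to a common library size with TMM factors of all 22 libraries. Control animal 04 held the most macrophage transcripts of all animals in each kind of piece, with a sum over 9 markers of 715 CPM in its fresh-frozen piece against 257 to 348 CPM in the other 5. The sum over 6 kidney and skeletal muscle genes was at most 0.344 CPM in every fresh-frozen library. It reached 269 and 113 CPM in 3 wk controls 03 and 06, 436 CPM in 3 wk furan 42 and 28.6 CPM in 18 h furan 44.

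In fresh-frozen livers furan changed 7 of the 34 genes. Bhmt, which remethylates homocysteine with betaine, and Kmo of the kynurenine route rose. Otc of the urea cycle, Hpd of tyrosine breakdown, Prodh of proline breakdown, Agxt, which removes glyoxylate, and Afmid, which frees kynurenine, fell. All 34 genes passed the filter on low counts in each comparison, and a gene counts as risen or fallen where edgeR's quasi-likelihood test gave a Benjamini-Hochberg adjusted p under 0.05 over all tested genes. The 2 rises compare with a background of 8.21% of all tested genes rising, and the 5 falls with 7.47% falling. The median log2 fold change was -0.10 over the 34 genes and -0.01 over all tested genes. In 18 h pieces 4 of the 34 rose (Bhmt, Kmo, Glud1 and Cth; background 3.92%) and 7 fell (Otc, Hpd, Fah, Afmid, Haao, Prodh and Agxt; background 4.47%). In 3 wk pieces Bhmt rose (background 0.298%) and Hpd, Haao, Prodh and Agxt fell (background 0.522%). The medians over the 34 genes were -0.06 at 18 h and -0.13 at 3 wk, against -0.01 and 0.02 over all tested genes. Bhmt, Prodh, Hpd and Agxt passed the test in all 3 comparisons, Otc, Afmid, Kmo and Haao in 2, and Cth, Fah and Glud1 in 1. The remaining 23 genes passed in none, and Bhmt was the only one of the 34 with a change of at least 2-fold, in fresh-frozen and 18 h pieces. Without the 2 shallowest 3 wk libraries, control 02 and furan 43, an alternative chosen after seeing the data, 0 of the 34 passed at 3 wk, and 9 rises and 3 falls were left among all tested genes. With 1 model of all 6 groups, 4 of the 7 fresh-frozen calls (Hpd, Afmid, Kmo and Prodh) and 6 of the 11 calls at 18 h (Hpd, Fah, Afmid, Kmo, Haao and Agxt) were lost. On the animals that also have a fresh-frozen library, 5 calls at 18 h (Otc, Fah, Afmid, Haao and Glud1) and 3 at 3 wk (Hpd, Haao and Prodh) were lost. Over all tested genes that fit left 285 rises and 309 falls at 18 h, and 13 and 6 at 3 wk.

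**Figure D1:**
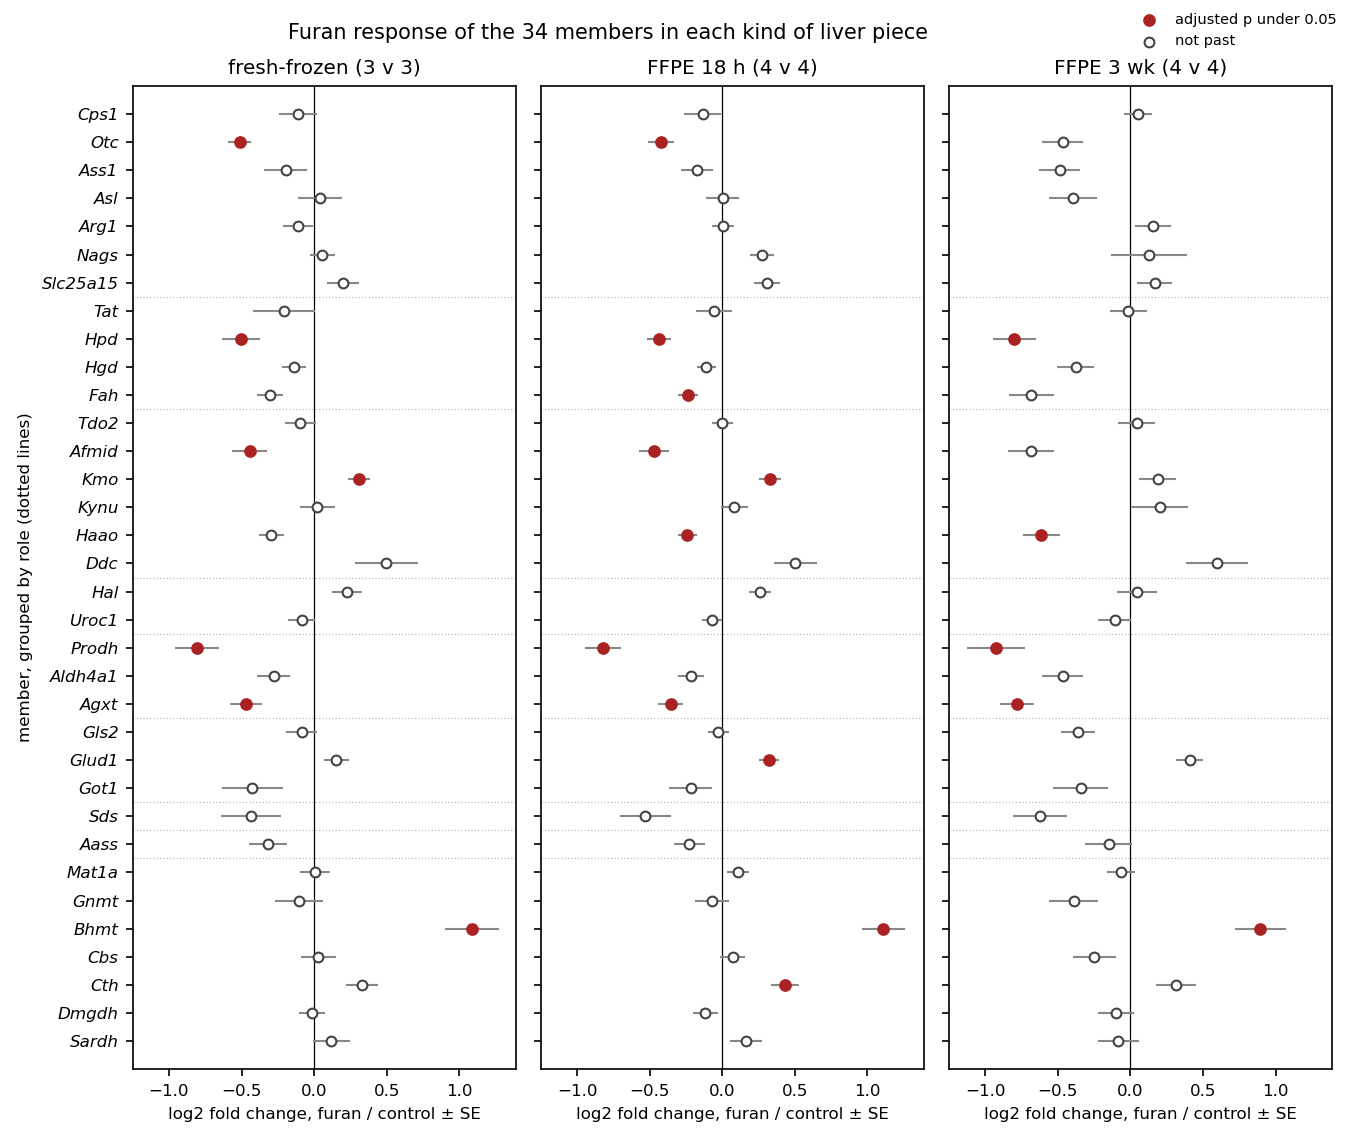
Log2 fold change (furan over control, horizontal axis) ± SE of each of the 34 genes, listed by role from top to bottom, in fresh-frozen, FFPE 18 h and FFPE 3 wk pieces. Filled points passed the test (7, 11 and 5 genes), and Bhmt lies farthest from 0 in the first 2 panels, at 1.08 and 1.11.

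The summed level of endothelial markers was lower in furan than in control livers, with no adjusted p under 0.05. The sum over 10 endothelial markers was 523.5 to 561 CPM in fresh-frozen control and 382 to 458 CPM in furan livers, a ratio of means of 0.774 that was 0.782 at 18 h and 0.816 at 3 wk. Furan and control libraries did not overlap in any of the 3 kinds of piece. The exact two-sided permutation test gave p = 0.10 in fresh-frozen and p = 0.0286 in each kind of FFPE piece, the smallest values these designs allow, and the adjusted values over 45 marker tests were 0.321, 0.129 and 0.129. Tested singly, 4 of the 10 markers fell in fresh-frozen livers, 2 at 18 h and 0 at 3 wk, and none rose. The backgrounds of falling genes were 7.47%, 4.47% and 0.522%. At 3 wk, 3 of the 10 had a log2 fold change above 0. The hepatocyte sum had ratios of 1.01, 1.07 and 0.987, and albumin alone held a mean of 111600 CPM of it in fresh-frozen controls. The medians of the 9 hepatocyte log2 fold changes were -0.21, -0.06 and -0.10. Of these 9 genes 1 fell in fresh-frozen livers, and none passed in FFPE pieces. In bulk liver, fewer cells of a type and less RNA per cell cannot be told apart, and the part of cell make-up in the values below was not tested.

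The 4 genes that passed in all 3 furan comparisons did so in pieces of the same animals, and each of their 3 wk calls was lost under some alternative. The start regions of these 4 genes are shown. Each is the 150 bases before the annotated start, on the strand of the gene, from RefSeq on build GRCm38.p6, which is a later build than the one the counts were made on. Bhmt is chr13:93637759-93637908 on the minus strand, Prodh chr16:18089191-18089340 on the minus strand, Hpd chr5:123182724-123182873 on the minus strand and Agxt chr1:93135090-93135239 on the plus strand. Capitals mark TGTTCT, a glucocorticoid receptor half-site, 129 bases before the Agxt start.
Bhmt: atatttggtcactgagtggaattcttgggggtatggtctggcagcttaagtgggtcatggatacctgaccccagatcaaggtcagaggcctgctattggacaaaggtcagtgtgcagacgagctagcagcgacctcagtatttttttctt
Prodh: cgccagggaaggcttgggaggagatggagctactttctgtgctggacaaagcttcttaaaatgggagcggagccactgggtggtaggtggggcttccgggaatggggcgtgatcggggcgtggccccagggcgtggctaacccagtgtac
Hpd: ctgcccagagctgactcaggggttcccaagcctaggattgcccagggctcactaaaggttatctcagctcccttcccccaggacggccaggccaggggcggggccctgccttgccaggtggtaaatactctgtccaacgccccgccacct
Agxt: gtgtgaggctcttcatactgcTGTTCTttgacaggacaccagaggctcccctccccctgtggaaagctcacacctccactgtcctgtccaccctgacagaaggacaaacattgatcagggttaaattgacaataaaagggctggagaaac
GC content was 48.7%, 62.0%, 64.0% and 50.7%, against a median of 54.0% over 32851 RefSeq promoters and of 58.3% over 28 promoters of the 34 genes. Prodh held 7 CpG pairs, Hpd 4, Bhmt 2 and Agxt 0, with a median of 4 over all promoters. A search for 6 motifs covered both strands of the 300 bases from 250 before to 50 after the start, and promoters were found for 26 of the 34 genes. TGTTCT was in 3 of the 28 promoters (10.7%; Agxt, Haao and Kmo) and in 19.0% of all promoters. The TATA box TATAAA was in 4 (14.3%; Ddc, Hal, Hgd and Tdo2) against 13.6% of all. The C/EBP motif TTNNGCAA was in 4 (14.3%; Aass, Ddc, Hal and Hgd) against 10.8%, and its palindrome TTGCGCAA in 0 against 0.183%, which the former motif contains. The cAMP response element TGACGTCA and the HNF4A motif CAAAGTCCA were in 0 of 28, against 1.79% and 0.475% of all.

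Methionine, transsulfuration and choline breakdown held the largest rise. Betaine-homocysteine methyltransferase, encoded by Bhmt, makes methionine from homocysteine with a methyl group of betaine. Bhmt stood at 348, 240.3 and 344 CPM in fresh-frozen control and at 806, 550.2 and 610.4 CPM in furan livers. At 18 h the controls held 459, 498, 309.9 and 380.1 CPM and the furan livers 1133, 781, 821 and 805 CPM. At 3 wk they held 293, 391, 269 and 305 CPM and 769, 429.7, 621 and 471 CPM. Every furan library lay above every control library in each kind of piece, and animal 41 was the highest of the furan animals in all 3. The log2 fold changes were 1.08 ± 0.18 (adjusted p = 0.00987) in fresh-frozen, 1.11 ± 0.15 (adjusted p = 0.000674) in 18 h and 0.90 ± 0.17 (adjusted p = 0.0294) in 3 wk pieces. The fresh-frozen and 18 h calls held under each alternative tried, whereas the 3 wk call was lost without any one of control 02 (adjusted p = 0.0891), control 04 (0.113), furan 41 (0.0979), furan 43 (0.0908) or furan 44 (0.0804). Of the 50-base words in the Bhmt transcript 59.6% are shared with Gm5096, Bhmt-ps1 or Bhmt2, so its level is uncertain by the reads these copies could take or give. Gm5096 and Bhmt-ps1 have no row in the table. The paralog Bhmt2, which uses another methyl donor, had a row of its own and log2 fold changes of -0.01 ± 0.07, -0.05 ± 0.08 and -0.02 ± 0.13, none past the test.

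Cth, the cystathionine lyase that releases cysteine, stood at 316, 340.3 and 354 CPM in fresh-frozen control and 404, 368 and 485 CPM in furan livers. At 18 h it stood at 128, 141, 133 and 116 CPM in control and 191, 164, 151 and 192 CPM in furan livers, and at 3 wk at 106, 119, 113 and 141 and 136, 154, 145 and 148 CPM. The groups did not overlap in fresh-frozen and 18 h pieces and overlapped at 3 wk, where control 06 lay above furan 41. Cth rose in 18 h pieces, with a log2 fold change of 0.43 ± 0.10 (adjusted p = 0.0173), a call lost without furan 41 (adjusted p = 0.0503) or furan 44 (0.065). Its log2 fold changes of 0.33 ± 0.11 (adjusted p = 0.0818) in fresh-frozen and 0.32 ± 0.14 (adjusted p = 0.398) in 3 wk pieces missed the threshold. Cystathionine synthase, encoded by Cbs, which makes the substrate of Cth, had 0.03 ± 0.12, 0.07 ± 0.09 and -0.25 ± 0.15. Mat1a, which makes S-adenosylmethionine, had 0.01 ± 0.10, 0.11 ± 0.07 and -0.07 ± 0.10. Gnmt, which uses S-adenosylmethionine up on glycine, had -0.10 ± 0.17, -0.07 ± 0.12 and -0.39 ± 0.17. Dmgdh and Sardh, which take the methyl groups off the products of betaine, lay between -0.12 and 0.17 in all 3 comparisons. None of these 5 passed the test in any furan comparison.

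Proline breakdown and glyoxylate removal held 2 of the falls seen in every kind of piece. Prodh encodes proline dehydrogenase, the first enzyme of proline breakdown in the mitochondrion. Prodh stood at 244, 212 and 321 CPM in fresh-frozen control and 163, 140.2 and 138 CPM in furan livers. At 18 h the values were 324, 281, 242 and 399 CPM in control and 184, 180, 183 and 155 CPM in furan livers. At 3 wk they were 240.2, 223, 135 and 244 CPM and 105, 96.7, 147 and 86.5 CPM. The groups did not overlap in fresh-frozen and 18 h pieces, and at 3 wk control 04 lay below furan 43. The log2 fold changes were -0.81 ± 0.15 (adjusted p = 0.0132), -0.82 ± 0.12 (adjusted p = 0.00148) and -0.93 ± 0.20 (adjusted p = 0.0456). The 18 h call held under each alternative tried. The fresh-frozen call was lost without furan 43 (adjusted p = 0.0597) or furan 44 (0.0541), and the 3 wk call without control 02 (0.131), control 03 (0.113), furan 41 (0.136), furan 42 (0.149) or furan 44 (0.206). Aldh4a1, the next enzyme of the route, had log2 fold changes of -0.28 ± 0.11, -0.22 ± 0.09 and -0.47 ± 0.14, none past the test, and its furan libraries all lay below its controls in fresh-frozen and 3 wk pieces. In the later annotation 47.2% of the exon bases of Aldh4a1 overlap the read-through gene Gm21969, which lies on the same strand. Gm21969 has no row in the table.

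Agxt encodes the alanine-glyoxylate aminotransferase of the peroxisome, whose loss causes primary hyperoxaluria. In fresh-frozen livers Agxt stood at 495, 439 and 454 CPM in controls and 309, 302 and 382 CPM after furan. The 18 h pieces held 794, 776, 704 and 752 CPM and 548, 666, 524 and 622 CPM, and the 3 wk pieces 592, 469.6, 560.1 and 606 CPM and 300.5, 319.6, 319 and 327 CPM. All furan libraries lay below all control libraries in each kind of piece, and the 4 furan livers at 3 wk lay within 300.5 to 327 CPM. The log2 fold changes were -0.47 ± 0.11 (adjusted p = 0.0252), -0.36 ± 0.09 (adjusted p = 0.0228) and -0.78 ± 0.12 (adjusted p = 0.00615). Leaving out 1 library ended the fresh-frozen call for control 02 (adjusted p = 0.0684), furan 41 (0.0768) and furan 43 (0.0945). It ended the 18 h call for control 02 (0.0653), control 03 (0.0621), furan 41 (0.0576) and furan 43 (0.0812), and the 3 wk call for no single library, although that call was lost without control 02 and furan 43 together (0.0992).

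Tyrosine breakdown runs from Tat through Hpd and Hgd to Fah, and Hpd and Fah were the members that passed. Hpd encodes 4-hydroxyphenylpyruvate dioxygenase, the target of nitisinone, and had the highest level per length of the 34 genes. Hpd stood at 2406, 2338 and 3011 CPM in fresh-frozen control and 1943, 1581 and 1905 CPM in furan livers. At 18 h it stood at 3969, 4059, 3870 and 4856 CPM in control and 3294, 3080, 2881 and 3099 CPM in furan livers. At 3 wk it stood at 1594, 1525, 1791 and 2614 CPM and 1009, 1052, 1253 and 904 CPM. The groups did not overlap in any kind of piece, and control 06 was the highest library of each. The log2 fold changes were -0.50 ± 0.13 (adjusted p = 0.039), -0.44 ± 0.08 (adjusted p = 0.00689) and -0.80 ± 0.15 (adjusted p = 0.0244). In fresh-frozen livers the call was lost when any 1 of the 6 libraries was left out, with adjusted p from 0.0505 without control 04 to 0.132 without furan 43. The 3 wk call was lost without control 02 (0.0524), control 04 (0.0738), furan 41 (0.075), furan 42 (0.0767) or furan 44 (0.125).

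Fah encodes fumarylacetoacetase, which ends the tyrosine route and is lost in tyrosinemia. Its levels were 669, 599.7 and 697 CPM in fresh-frozen control and 554, 496 and 532 CPM in furan livers. They were 1104, 1093, 978 and 1079 CPM and 938, 912, 902 and 850.3 CPM at 18 h, and 540, 465, 648 and 779.7 CPM and 342, 381, 446 and 314 CPM at 3 wk. No furan library reached the lowest control of its kind of piece. Fah fell at 18 h, with a log2 fold change of -0.24 ± 0.07 (adjusted p = 0.0497), and the call was lost without control 02 (adjusted p = 0.121), 03 (0.114) or 04 (0.0578) or furan 42 (0.0801), 43 (0.129) or 44 (0.149). The values of -0.30 ± 0.09 (adjusted p = 0.0565) in fresh-frozen and -0.68 ± 0.15 (adjusted p = 0.0522) in 3 wk pieces lay just outside it. Homogentisate dioxygenase, encoded by Hgd, had log2 fold changes of -0.14 ± 0.08, -0.11 ± 0.07 and -0.38 ± 0.13. Tat, the aminotransferase that opens the route and responds to glucocorticoids, had -0.21 ± 0.21, -0.06 ± 0.12 and -0.01 ± 0.13. Neither passed the test in any of the 3 comparisons.

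**Figure D2:**
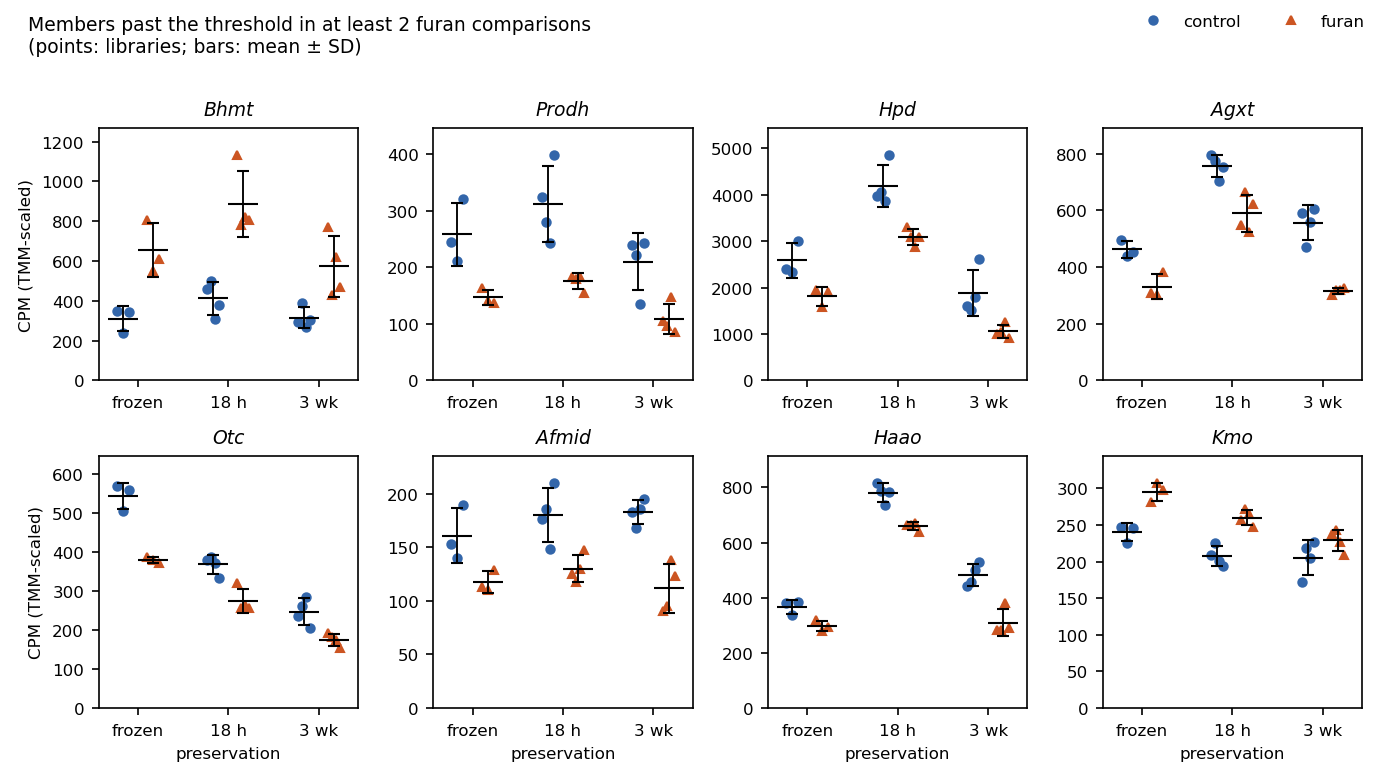
Level in CPM (vertical axes, from 0) of the 8 genes that passed the test in at least 2 furan comparisons, in fresh-frozen, 18 h and 3 wk pieces; points are libraries and bars the mean ± SD. Bhmt lies higher in furan (triangles) than in control libraries (circles) in each kind of piece, Hpd, Agxt, Otc, Afmid and Haao lie lower in each, and Prodh overlaps at 3 wk.

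In the kynurenine route, by which tryptophan is broken down towards NAD, members moved in both directions. Afmid encodes the formamidase that frees kynurenine. Afmid stood at 153, 139.9 and 189 CPM in fresh-frozen control and 113, 110 and 129 CPM in furan livers. At 18 h it stood at 176, 185, 148 and 210.2 CPM and 125, 117, 129.6 and 147 CPM, and at 3 wk at 183, 168, 186 and 195 CPM and 90.7, 94.8, 138 and 123 CPM. The groups did not overlap in any kind of piece. Afmid fell in fresh-frozen and 18 h pieces, with log2 fold changes of -0.44 ± 0.12 (adjusted p = 0.0433) and -0.47 ± 0.10 (adjusted p = 0.0144), and the value of -0.68 ± 0.16 (adjusted p = 0.0555) at 3 wk missed the threshold. The fresh-frozen call was lost without control 02 (0.0747), control 06 (0.0733), furan 41 (0.124), furan 43 (0.146) or furan 44 (0.0662), and the 18 h call on the 6 animals that also have a fresh-frozen library (0.0976). The Afmid values are uncertain, because 70.9% of its exon bases overlap other genes in the later annotation and the libraries do not record strand. Of these, the same-strand gene Gm20708 has no row in the table. The other is thymidine kinase, Tk1, on the opposite strand, with means of 17.2 CPM in fresh-frozen controls and 9.64 CPM after furan. Tk1 fell there and at 18 h, with log2 fold changes of -0.83 ± 0.19 (adjusted p = 0.0230) and -0.97 ± 0.12 (adjusted p = 0.000476), and its part in the Afmid values was not tested.

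Kmo encodes the hydroxylase that draws kynurenine towards quinolinate. Fresh-frozen livers held 248, 225 and 246 CPM of Kmo in controls and 282, 307 and 297 CPM after furan, 18 h pieces 209, 226, 201 and 193 CPM and 257, 271, 265 and 247 CPM, and 3 wk pieces 172, 219, 205 and 227 CPM and 237, 243, 226 and 209 CPM. Furan livers lay above controls without overlap in fresh-frozen and 18 h pieces, and the groups overlapped at 3 wk. Kmo rose by 0.31 ± 0.08 (adjusted p = 0.0306) in fresh-frozen and by 0.33 ± 0.07 (adjusted p = 0.0145) in 18 h pieces, with 0.19 ± 0.13 (adjusted p = 0.677) at 3 wk. The fresh-frozen rise was lost without control 02 (0.0562), control 04 (0.0876), furan 43 (0.0849) or furan 44 (0.0707).

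Haao encodes the dioxygenase that makes the precursor of quinolinate. Haao stood at 382, 338 and 383 CPM in fresh-frozen control and 318, 281 and 294 CPM in furan livers, at 818, 787, 735 and 784 CPM and 665, 664, 672 and 637 CPM in 18 h pieces, and at 442, 456, 502 and 531 CPM and 283, 283, 382 and 289 CPM in 3 wk pieces. Every furan library lay below every control library of its kind of piece. Haao fell at 18 h and 3 wk, with log2 fold changes of -0.24 ± 0.06 (adjusted p = 0.0355) and -0.61 ± 0.13 (adjusted p = 0.0349), and its fresh-frozen value of -0.30 ± 0.09 (adjusted p = 0.0552) missed the threshold. At 18 h the call was lost without any one of control 02, 03 or 04 or furan 42, 43 or 44, with adjusted p from 0.0578 without control 04 to 0.111 without furan 44. At 3 wk it was lost without any one of control 02, 03 or 04 or furan 41, 42 or 44, with adjusted p from 0.0688 without control 03 to 0.158 without furan 44. Tdo2, the dioxygenase that opens the route, had log2 fold changes of -0.10 ± 0.11, 0.00 ± 0.07 and 0.04 ± 0.13, and Kynu, the kynureninase, had 0.02 ± 0.12, 0.08 ± 0.10 and 0.20 ± 0.19. The aromatic amino acid decarboxylase Ddc, the member with the lowest level per length, had 0.50 ± 0.22, 0.50 ± 0.15 and 0.59 ± 0.21. None of these 3 passed the test. Acmsd, a gene outside the 34 that diverts the route away from NAD, had the smallest p of the 49 other tested genes of amino acid breakdown, with rises of 1.85 ± 0.18 (adjusted p = 0.00135) in fresh-frozen and 1.46 ± 0.16 (adjusted p = 0.000219) in 18 h pieces.

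Of the 7 urea cycle genes, Otc was the one that changed with furan. Otc encodes ornithine transcarbamylase, which joins carbamoyl phosphate to ornithine in the mitochondrion. Otc stood at 569, 506 and 559 CPM in fresh-frozen control and 387, 379 and 371 CPM in furan livers. In 18 h pieces it stood at 379, 388, 373 and 333 CPM and 322, 256, 266 and 256 CPM, and in 3 wk pieces at 236, 261, 286 and 206 CPM and 191, 181, 175 and 154 CPM. Furan libraries lay below control libraries without overlap in each kind of piece. Otc fell in fresh-frozen and 18 h pieces, with log2 fold changes of -0.51 ± 0.08 (adjusted p = 0.00711) and -0.42 ± 0.09 (adjusted p = 0.0121), and -0.47 ± 0.14 (adjusted p = 0.161) at 3 wk missed the threshold. The fresh-frozen call held under each alternative tried, and the 18 h call was lost on the 6 animals that also have a fresh-frozen library (adjusted p = 0.0843).

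The other 6 urea cycle genes passed the test in no furan comparison. Cps1, the carbamoyl phosphate synthetase that starts the cycle, stood at 6314, 6799 and 8569 CPM in fresh-frozen control and 6724, 6645 and 6560 CPM in furan livers, with 1818, 1904, 1929 and 2869 CPM and 1929, 2131, 1876 and 1804 CPM at 18 h, and 2064, 2412, 2236 and 2747 CPM and 2528, 2448, 2238 and 2349 CPM at 3 wk. Its log2 fold changes were -0.11 ± 0.13 (adjusted p = 0.6), -0.13 ± 0.13 (adjusted p = 0.572) and 0.05 ± 0.10 (adjusted p = 0.946). The furan livers were more alike than the controls, of which animal 06 was the highest in each kind of piece. Asl, the argininosuccinate lyase, stood at 334, 368 and 489 CPM and 425, 348 and 443 CPM in fresh-frozen control and furan livers, at 349.7, 424, 396 and 528 CPM and 458, 393, 389 and 455 CPM at 18 h, and at 142, 197, 200 and 222 CPM and 120.4, 131, 183 and 133 CPM at 3 wk. The log2 fold changes of Asl were 0.04 ± 0.15 (adjusted p = 0.881), 0.00 ± 0.11 (adjusted p = 0.993) and -0.39 ± 0.16 (adjusted p = 0.375). Arg1, the arginase that releases urea, stood at 1019, 1016 and 1234 CPM and 1015, 1040 and 952 CPM in fresh-frozen livers, at 820.4, 901, 876 and 851 CPM and 952, 826, 888 and 788 CPM at 18 h, and at 716, 761, 684 and 699 CPM and 821, 705, 959.9 and 639 CPM at 3 wk. For Arg1 the log2 fold changes were -0.11 ± 0.10 (adjusted p = 0.502), 0.00 ± 0.08 (adjusted p = 0.984) and 0.16 ± 0.12 (adjusted p = 0.753). For Asl and Arg1, control and furan livers overlapped in each kind of piece.

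Nags makes N-acetylglutamate, the activator of Cps1, and Slc25a15 carries ornithine into the mitochondrion. Nags stood at 71.8, 63.5 and 70.5 CPM in fresh-frozen control and 74.8, 64.5 and 73.3 CPM in furan livers, at 85.3, 86.9, 72.1 and 85.1 CPM and 93.7, 106, 93.9 and 104 CPM at 18 h, and at 73.4, 37.6, 83.0 and 38.6 CPM and 69.0, 55.0, 67.7 and 58.2 CPM at 3 wk. At 18 h all furan livers lay above all controls, yet the log2 fold change of 0.27 ± 0.08 (adjusted p = 0.0649) missed the threshold, beside 0.06 ± 0.08 (adjusted p = 0.686) in fresh-frozen and 0.13 ± 0.26 (adjusted p = 0.948) in 3 wk pieces. Slc25a15 stood at 443, 447 and 478 CPM and 448, 514 and 597 CPM in fresh-frozen livers, at 327, 349.6, 343 and 373 CPM and 362, 448, 421 and 488 CPM at 18 h, and at 372, 471, 434 and 507 CPM and 445, 494, 471 and 544 CPM at 3 wk. Its log2 fold changes were 0.20 ± 0.11 (adjusted p = 0.263), 0.31 ± 0.09 (adjusted p = 0.0571) and 0.17 ± 0.12 (adjusted p = 0.711), and control and furan livers overlapped in each kind of piece.

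Ass1, the argininosuccinate synthetase, stood at 404, 419 and 572 CPM in fresh-frozen control and 457, 372 and 381 CPM in furan livers, at 356, 432, 421 and 492 CPM and 450.2, 355, 342 and 355 CPM at 18 h, and at 326, 397, 443 and 558 CPM and 328, 278, 307 and 286 CPM at 3 wk. The groups overlapped in each kind of piece, and the log2 fold changes were -0.20 ± 0.15 (adjusted p = 0.405), -0.18 ± 0.11 (adjusted p = 0.369) and -0.49 ± 0.14 (adjusted p = 0.15). These are not the whole signal of Ass1-like sequence, because 55.3% of its 50-base words also occur in the transcribed pseudogene Gm5424, which has a row of its own. Gm5424 held more counts than Ass1 in fresh-frozen control livers, with a mean of 1509 CPM. The 2 rows together came to 1974 ± 397 CPM (SD, n = 3) in fresh-frozen control and 1676 ± 190 CPM (SD, n = 3) in fresh-frozen furan livers, of which Ass1 held 23.6% and 24.1%. In control pieces the sum was 1083 ± 133 CPM (SD, n = 4) at 18 h, with 39.3% in the Ass1 row, and 859 ± 174 CPM (SD, n = 4) at 3 wk, with 50.2%. How the reads were divided between the 2 rows is not given in the sources used here.

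**Figure D3:**
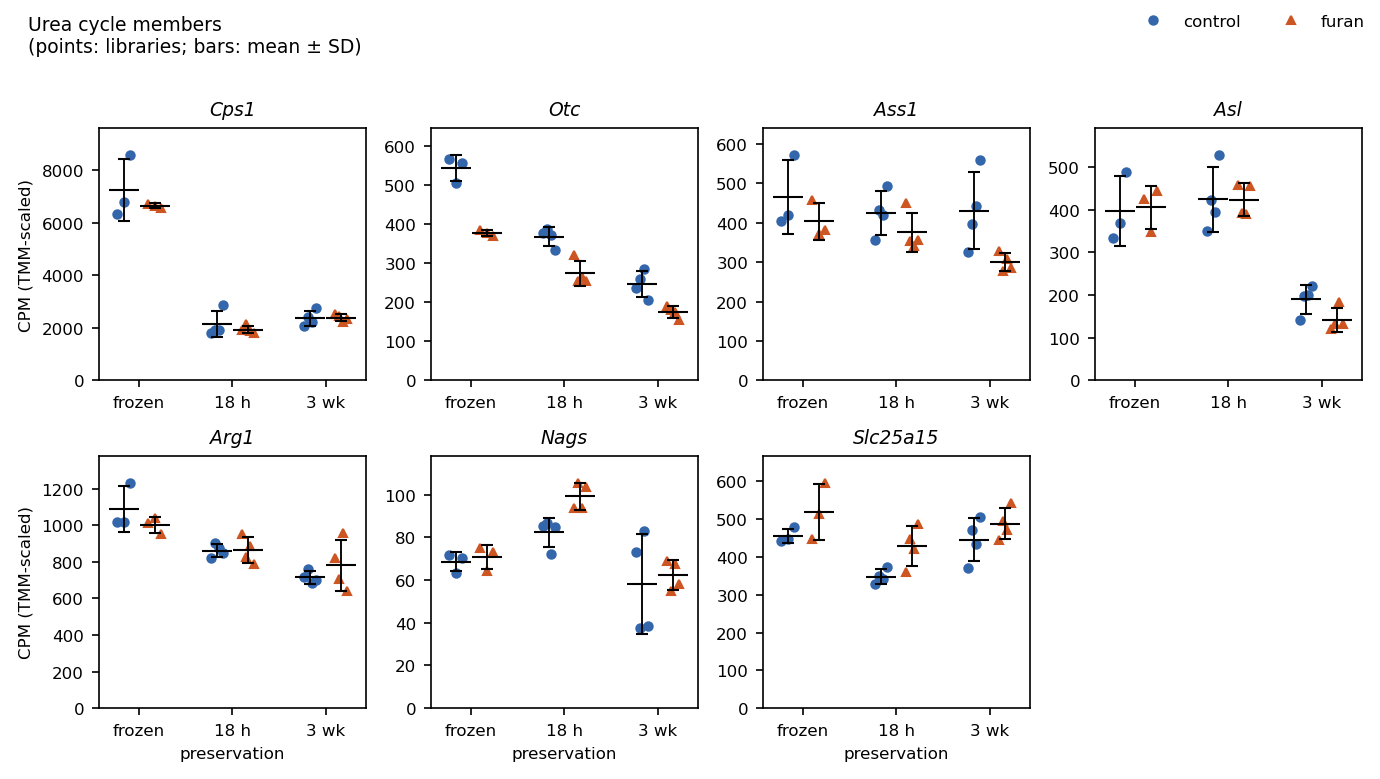
Level in CPM (vertical axes, from 0) of the 7 urea cycle genes in control (circles) and furan (triangles) libraries of fresh-frozen, 18 h and 3 wk pieces; bars are the mean ± SD. Otc lies lower after furan in each kind of piece, and Cps1 lies between 6314 and 8569 CPM in fresh-frozen and between 1804 and 2869 CPM in FFPE livers.

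Among the enzymes of glutamine, glutamate and aspartate, Glud1 passed the test once. Glud1 encodes glutamate dehydrogenase, which frees ammonia from glutamate in the mitochondrion. It stood at 1278, 1364 and 1285 CPM in fresh-frozen control and 1346, 1498 and 1492 CPM in furan livers. In FFPE tissue the values were 877, 888, 894 and 797 CPM in control and 1060, 1055, 1086 and 1105 CPM in furan livers at 18 h, and 799, 788, 834 and 824 CPM and 1019, 1085, 1060 and 1052 CPM at 3 wk. The FFPE groups did not overlap, and in fresh-frozen tissue control 04 lay above furan 41. Glud1 rose by 0.32 ± 0.07 (adjusted p = 0.0133) at 18 h, with 0.15 ± 0.08 (adjusted p = 0.254) in fresh-frozen and 0.41 ± 0.09 (adjusted p = 0.0537) in 3 wk pieces. The 18 h call was lost on the 6 animals that also have a fresh-frozen library (adjusted p = 0.0541). Gls2, the liver glutaminase, had log2 fold changes of -0.09 ± 0.11, -0.03 ± 0.07 and -0.36 ± 0.11, and Got1, the cytosolic aspartate aminotransferase, had -0.43 ± 0.21, -0.22 ± 0.15 and -0.34 ± 0.19. Neither passed the test.

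The last 4 genes also passed in no furan comparison. Hal, which opens histidine breakdown, had log2 fold changes of 0.22 ± 0.10, 0.26 ± 0.08 and 0.05 ± 0.14, and Uroc1, the next enzyme, had -0.09 ± 0.09, -0.07 ± 0.07 and -0.11 ± 0.11. Sds, the serine dehydratase that feeds gluconeogenesis, had -0.44 ± 0.20, -0.53 ± 0.18 and -0.62 ± 0.18, the lowest values of the genes that missed the test in fresh-frozen and 18 h pieces. In fresh-frozen tissue Sds stood at 110.1, 114 and 195 CPM in controls and 95.7, 108 and 104 CPM in furan livers, without overlap. Its levels were 212, 276, 206 and 381 CPM and 149, 212, 218 and 164 CPM at 18 h, and 128, 169, 147 and 226 CPM and 82.9, 102, 134 and 106 CPM at 3 wk. Exons of Plbd2 and Gm15690, both on the opposite strand, overlap 38.9% of the Sds exon bases. Plbd2 has a row in the table and Gm15690 has none. Aass, which opens lysine breakdown, had -0.32 ± 0.13, -0.23 ± 0.11 and -0.15 ± 0.16, with 365, 356 and 487 CPM in fresh-frozen control and 299, 325 and 339 CPM in furan livers.

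The furan response of the 34 genes was not shown to differ between kinds of piece. The interaction of treatment and preservation, tested with edgeR over all genes, called 0 of 34 for 18 h against fresh-frozen and 0 of 34 for 3 wk against fresh-frozen, where the background was 0% in both. At an unadjusted p under 0.05, 0 and 1 of the 34 passed, and 455 of 13739 and 590 of 13156 tested genes. The 1 member was Glud1 at 3 wk (unadjusted p = 0.0204). DESeq2 also called 0 of the 34 in both interactions, with 1 and 4 of them at an unadjusted p under 0.05. Over all tested genes DESeq2 called 1 and 19, and 522 of 13739 and 711 of 13156 passed unadjusted. With the animal as a replicate block in edgeR, 2 and 5 of the 34 passed unadjusted, beside 1563 of 13966 and 757 of 13540 tested genes. The differences between responses ran from -0.09 (Dmgdh) to 0.23 (Nags) at 18 h and from -0.42 (Asl) to 0.29 (Arg1) at 3 wk on the log2 scale.

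Genes of the same pathways outside the 34 mostly missed the test or fell. The background for the counts that follow is that of all tested genes, 8.21% rising and 7.47% falling in fresh-frozen livers, 3.92% and 4.47% at 18 h, and 0.298% and 0.522% at 3 wk. Of 49 tested genes of amino acid breakdown, 1 rose (Acmsd) and 10 fell in fresh-frozen livers, 1 rose and 9 fell at 18 h, and 0 rose and 2 fell at 3 wk, with medians of -0.13, -0.08 and -0.21. Cdo1, which oxidises cysteine, was the one with the smallest p among the falls in fresh-frozen livers (-0.65 ± 0.09, adjusted p = 0.00574), and Aspg, an asparaginase, at 3 wk (-0.70 ± 0.12, adjusted p = 0.0148). The other fall at 3 wk was in Glul, the glutamine synthetase gene, which this list includes although its enzyme makes glutamine. The lists of breakdown, transporter and pericentral genes share members, Glul and Slc1a2 among them. Their counts here and below are therefore not separate observations. Of 10 tested amino acid transporters, 1 fell in fresh-frozen livers (Slc1a2), 4 at 18 h (Slc1a2, Slc38a3, Slc7a2 and Slc38a4) and 0 at 3 wk, and none rose. Of 11 regulators of these routes, 2 fell in fresh-frozen livers, 2 fell and 1 rose at 18 h, and 1 fell at 3 wk. The 3 that fell or rose were Klf15, the glucagon receptor gene Gcgr and Hnf4a. Glul, Klf15, Hnf4a and the transporters were named after their values were seen. Gcgr had log2 fold changes of -0.31 ± 0.09 (adjusted p = 0.0468), -0.47 ± 0.07 (adjusted p = 0.000992) and -0.69 ± 0.14 (adjusted p = 0.0349).

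Genes that mark zones of the liver lobule were counted in the same way. A list of 7 periportal genes among the 34 (Cps1, Ass1, Asl, Arg1, Hal, Sds and Gls2) passed the test in 0 of the 3 furan comparisons, with medians of -0.11, -0.03 and -0.36. This list was written with earlier results of these data known. It does not include Otc, the urea cycle gene that fell in fresh-frozen and 18 h pieces. Of 8 other periportal genes, 2 rose and 2 fell in fresh-frozen livers, 1 rose and 2 fell at 18 h, and 1 fell at 3 wk. The rises were in Aldh1b1 and Hsd17b13 and the falls in Pigr and Pck1, of which Hsd17b13 and Pck1 were named after their values were seen. Aldh1b1 rose (0.70 ± 0.09, adjusted p = 0.0034, in fresh-frozen livers) and Pigr fell (-0.94 ± 0.14, adjusted p = 0.00692, at 3 wk). Of 10 pericentral genes, 6 fell in fresh-frozen livers, 6 at 18 h and 3 at 3 wk (Cyp2e1, Glul and Lhpp, the last named after its values were seen), and none rose. Cyp2e1, the enzyme that activates furan, fell in each, with log2 fold changes of -0.97 ± 0.11 (adjusted p = 0.00281), -0.62 ± 0.08 (adjusted p = 0.000464) and -0.64 ± 0.09 (adjusted p = 0.00298). The summed level of the 10 pericentral genes had furan to control ratios of 0.555, 0.672 and 0.657, and Cyp2e1 alone held a mean of 10020 CPM of a sum of 12070 to 14850 CPM in fresh-frozen controls. The sum of the 8 periportal genes had ratios of 0.730, 0.732 and 0.773, and Pck1 and Pigr held means of 3299 and 2690 CPM of a sum of 7204 to 7753 CPM in fresh-frozen controls. The medians of the 8 log2 fold changes were -0.06, -0.19 and -0.19. For both sums the exact two-sided permutation test gave adjusted p = 0.321 in fresh-frozen and 0.129 in each kind of FFPE piece.

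The animals differed among themselves in ways that recurred across the pieces. Among control animals 02, 04 and 06, animal 06 had the highest level of 23 of the 34 genes in fresh-frozen, 19 in 18 h and 25 in 3 wk pieces, and of 18 genes in all 3. Cps1, Ass1, Asl, Tat, Hpd, Sds, Prodh and Mat1a were among these 18. Among furan animals 41, 43 and 44, animal 44 was the highest for 9 genes in all 3 kinds of piece, animal 41 for 8 and animal 43 for 1. The same counts over all tested genes were not made, and the 34 genes are not independent of each other. Whether these ranks are particular to the 34 genes was not tested. The 18 h library of control 06 also had the highest share of Rn45s, at 37.3%. The coefficient of variation in fresh-frozen controls had a median of 12.8% over the 34 genes and ran from 3.66% (Glud1) to 34.2% (Sds). In fresh-frozen furan livers the median was 8.59%, from 1.23% (Cps1) to 25.1% (Ddc).

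Per length, the levels of the 34 genes in fresh-frozen control livers ran from 14.5 to 1841 CPM per kb. Hpd led with 1841 CPM per kb of transcript, followed by Mat1a with 1589, Cps1 with 1301, Gnmt with 888, Arg1 with 738 and Tat with 638 CPM per kb. Nags with 33.8 and Ddc with 14.5 CPM per kb were at the low end. Lengths are those of transcripts in the later annotation.

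FFPE pieces of control livers differed from fresh-frozen pieces in 23 of the 34 genes at 18 h and in 14 at 3 wk, and the 18 h share is near that of all tested genes. At 18 h, 9 genes were higher and 14 lower than in fresh-frozen liver, where 34.2% of all tested genes were higher and 33.8% lower. At 3 wk, 1 was higher and 13 were lower, where 13.2% were higher and 13% lower. With the animal as a replicate block on the 3 shared control animals, the counts were 12 and 15 at 18 h and 2 and 16 at 3 wk. Over all tested genes that fit called 4688 higher and 4772 lower of 13382 at 18 h, and 1220 and 1607 of 12911 at 3 wk, where its median over all genes was -0.34. The medians over the 34 genes were -0.02 and -0.26, against 0.02 and -0.03 over all tested genes. Both comparisons share the fresh-frozen control libraries. The hepatocyte marker sum of control livers at 3 wk was 0.628 of the fresh-frozen sum, from 83540 to 96730 against 140100 to 147800 CPM, and the 18 h sum was 0.965 of it. At 18 h, 5 of 8 tested cholangiocyte markers rose (median 1.43), as did 4 of 6 lymphocyte (median 1.61) and 2 of 9 macrophage markers (median 0.66), and none of these fell. Of 10 endothelial markers 1 rose and 6 fell (median -0.37), of 10 stellate and fibroblast markers 3 rose and 3 fell, and of 9 hepatocyte markers 4 rose and 2 fell. The lymphocyte sum of 11.9 to 20.1 CPM at 18 h lay within the 10.6 to 28.4 CPM of fresh-frozen controls, unlike its median. At 3 wk, 2 hepatocyte markers rose and 5 fell, 1 endothelial marker rose and 2 fell, 1 stellate and fibroblast marker rose and 3 fell, and no tested macrophage, lymphocyte or cholangiocyte marker passed. The part of these markers in the values of the 34 genes was not tested.

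Cps1 had the largest fall at 18 h. From 6314 to 8569 CPM in fresh-frozen control livers it went to 1818 to 2869 CPM at 18 h and 2064 to 2747 CPM at 3 wk, log2 differences of -1.71 ± 0.17 (adjusted p = 1.33e-05) and -1.57 ± 0.12 (adjusted p = 4.1e-05). Tdo2 went from 1204, 1008 and 1180 CPM in fresh-frozen livers to 429, 395, 364 and 387 CPM at 18 h and 379, 381, 304 and 447 CPM at 3 wk, differences of -1.47 ± 0.09 and -1.54 ± 0.13 with adjusted p of 6.61e-07 and 6.29e-05. In furan livers Tdo2 stood at 984, 1158 and 1012 CPM in fresh-frozen, 422, 369.6, 404 and 378 CPM in 18 h and 413, 378, 393 and 339 CPM in 3 wk pieces. Aass went to 148, 152, 142 and 212 CPM at 18 h and 113, 138, 121 and 171 CPM at 3 wk in controls (-1.25 ± 0.16 and -1.52 ± 0.17, adjusted p = 7.01e-05 and 0.000246), with 138, 138, 141 and 139.5 CPM and 116, 125, 139 and 98.6 CPM in furan livers. Cth had log2 differences of -1.32 ± 0.09 and -1.45 ± 0.12 (adjusted p = 7.89e-07 and 4.27e-05). The FFPE control libraries of these 4 genes lay below all fresh-frozen control libraries at both fixation times.

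The largest rises at 18 h were in Gnmt, Haao, Sds and Agxt. Gnmt went from 787, 866 and 1103 CPM in fresh-frozen control livers to 2058, 2268, 2307 and 2908 CPM at 18 h, a difference of 1.43 ± 0.15 (adjusted p = 1.87e-05), and stood at 807, 920.4, 1210 and 1471 CPM at 3 wk (0.30 ± 0.20 (adjusted p = 0.327)). In furan livers Gnmt held 1021, 709.8 and 816 CPM in fresh-frozen, 2691, 1970, 2129 and 2278 CPM in 18 h and 932, 662, 970.2 and 716 CPM in 3 wk pieces. Haao was higher at 18 h and at 3 wk, by 1.14 ± 0.08 (adjusted p = 1.71e-06) and 0.44 ± 0.10 (adjusted p = 0.0138), and the latter was lost without fresh-frozen control 02 (0.0529) or 04 (0.0975). Sds was higher at 18 h by 0.99 ± 0.26 (adjusted p = 0.00651) and Agxt by 0.77 ± 0.08 (adjusted p = 2.04e-05), while their 3 wk values of 0.30 ± 0.25 (adjusted p = 0.439) and 0.31 ± 0.12 (adjusted p = 0.0786) missed the threshold.

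Of the other urea cycle genes, Otc fell at both times, with -0.51 ± 0.09 (adjusted p = 0.000531) at 18 h and -1.09 ± 0.13 (adjusted p = 0.000423) at 3 wk. Asl had 0.15 ± 0.16 (adjusted p = 0.429) at 18 h and fell at 3 wk, with -1.02 ± 0.18 (adjusted p = 0.00285). Arg1 fell at both times, with -0.28 ± 0.09 (adjusted p = 0.0232) and -0.56 ± 0.10 (adjusted p = 0.00367), the former lost without 18 h control 02 (0.0655) or fresh-frozen control 06 (0.0834). Slc25a15 fell at 18 h, with -0.33 ± 0.08 (adjusted p = 0.00317), and had 0.01 ± 0.11 (adjusted p = 0.96) at 3 wk. Nags was higher at 18 h by 0.32 ± 0.09 (adjusted p = 0.0127), lost without fresh-frozen control 04 (0.0709), with -0.19 ± 0.30 (adjusted p = 0.714) at 3 wk. Ass1 had -0.07 ± 0.15 (adjusted p = 0.668) and -0.07 ± 0.19 (adjusted p = 0.843), whereas its copy Gm5424 fell at both times, with -1.14 ± 0.14 (adjusted p = 6.02e-05) and -1.77 ± 0.17 (adjusted p = 9.99e-05). The remaining genes called at 18 h were Hpd, Hgd, Fah and Bhmt, which were higher, and Tat, Uroc1, Aldh4a1, Glud1, Mat1a, Dmgdh and Sardh, which were lower. At 3 wk the remaining calls were falls of Hal, Gls2, Glud1, Mat1a, Dmgdh and Sardh. Gls2 was lost there without fresh-frozen control 04 (adjusted p = 0.0725) or 06 (0.101), and Bhmt at 18 h without control 02 (0.114), 03 (0.129) or 06 (0.051) of the 18 h pieces or fresh-frozen control 04 (0.185).

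The difference between FFPE and fresh-frozen liver went with transcript length. Across the 34 genes, Spearman's rho between length and log2 difference was -0.681 at 18 h and -0.583 at 3 wk, against -0.585 over 12492 and -0.425 over 11752 tested genes with a length. The points of each correlation come from the same 7 libraries and are not independent. The 17 genes longer than the median of 2451.5 nt had a median log2 difference of -0.46 at 18 h and -0.64 at 3 wk, and the 17 shorter ones of 0.32 and -0.06. Split at the same length, all tested genes had medians of -0.37 and -0.31 for the longer and 0.82 and 0.55 for the shorter ones. Cth, with 1815 nt, had -1.32 and -1.45, beside -1.47 and -1.54 for Tdo2 with 3431 nt. With GC content rho over the 34 genes was 0.546 and 0.395. It was not computed over all tested genes, and length and GC content were not separated. Of the 49 tested genes of amino acid breakdown outside the 34, 17 were higher and 22 lower at 18 h, and 10 and 17 at 3 wk. The backgrounds over all tested genes were 34.2% and 33.8% at 18 h, and 13.2% and 13% at 3 wk. Among the genes with the smallest p were Aldh6a1 (-2.04 ± 0.10) and Mut (-1.49 ± 0.09) at 18 h and Dld (-1.40 ± 0.12) at 3 wk.

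**Figure D4:**
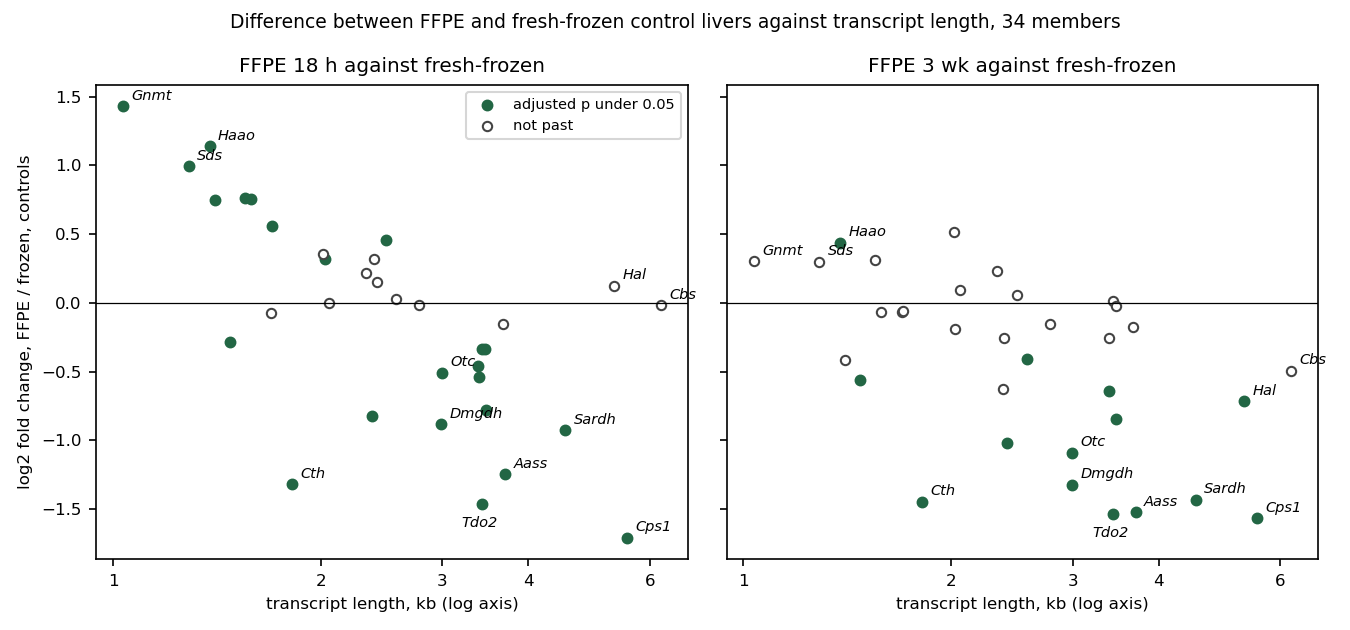
Log2 difference between FFPE and fresh-frozen control livers (vertical axis) against transcript length in kb (horizontal axis, log scale) for the 34 genes, at 18 h and 3 wk; filled points passed the test. At 18 h the short genes Gnmt and Haao lie above 0 and the long genes Cps1 and Sardh below it. The long genes Cbs (6.23 kb) and Hal (5.32 kb) lie at -0.02 and 0.13 there. At 3 wk 25 of the 34 genes lie below 0, with a median of -0.26 against -0.03 over all tested genes.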

How the data were processed

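The deposited table holds raw read counts per gene symbol for poly(A)-selected, unstranded HiSeq libraries. Per the submitters' processing notes the authors used CASAVA 1.8.2, STAR 2.3.0, featureCounts 1.4.4 and build mm9, with no role or setting stated. Of 24 columns, 22 carry the preservation and animal number of a labelled sample. The other 2 are fresh-frozen columns whose animal number is in no label, and they were left out.

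Each comparison was fitted on its own groups with edgeR 4.0.16 in R 4.3.3 (filterByExpr, TMM scaling, quasi-likelihood F test), with Benjamini-Hochberg adjustment over all tested genes and a threshold of 0.05. A log2 fold change carries ± SE, its size over the square root of F. Marker sums were compared with exact permutation tests. Printed CPM use TMM factors of all 22 libraries. The scripts were first tested on simulated data.

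Values in every library are given for genes past the threshold in a furan comparison, urea cycle genes, and the 4 largest differences each way between FFPE and fresh-frozen controls. Other pathway genes are counted, with up to 4 named per comparison by smallest p, apart from 1 that is not reported here. The genes and lists were chosen with earlier results of these data known. Lengths, overlaps and promoters came from GRCm38, matched by symbol.

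Pieces of 1 liver share an animal number, per the labels. Across 9590 genes with a mean of at least 5 CPM, deviations from group means had r from 0.409 to 0.500 between fresh-frozen and 18 h pieces of 1 animal and from 0.0857 to 0.257 between fresh-frozen and 3 wk pieces. No libraries of a group were duplicates (lowest chi-square per degree of freedom 9.36). The alternatives were DESeq2 1.42.0, RLE scaling, no filter, a filter at 5 CPM, robust dispersions, 1 model of all 6 groups, thinning to 3666173 counts, leaving out Rn45s, only animals with a fresh-frozen library, the animal as a replicate block, and leaving out each library.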

Additional observations from a re-analysis of the deposited data

Results flagged for a closer look

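Each of the 34 genes was checked in each group of 4 libraries, 136 sets of values in all. In 11 of them (8.09%) 1 library was set apart from the other 3 by a gap above Dixon's 95% critical value. The nominal rate is about 1 in 20. These sets share libraries and are not independent, and the rate over all genes was not counted, so no excess can be read from 8.09%. In 18 h control 06, Cps1 stood at 2869 CPM (next 1929 CPM), Aass at 211.7 CPM (next 151.9 CPM) and Sardh at 840.8 CPM (next 638.3 CPM). In 18 h control 04, Nags was low at 72.08 CPM (next 85.07 CPM). In 18 h furan 41, Bhmt stood at 1133 CPM (next 821.1 CPM), Ass1 at 450.2 CPM (next 355.4 CPM) and Otc at 321.6 CPM (next 265.6 CPM), and in 18 h furan 44 Prodh was low at 154.7 CPM (next 180.0 CPM). At 3 wk, furan 43 held the highest Haao (381.9 CPM, next 288.9 CPM) and Hgd (478.1 CPM, next 361.4 CPM), and control 02 the lowest Gls2 (398.5 CPM, next 455.2 CPM). Control 06 at 18 h also had the highest share of Rn45s (37.3%), and furan 43 and control 02 were the 2 shallowest libraries at 3 wk. The part of these in the values was not tested.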

How the results depend on the processing

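No called difference changed direction under any alternative. The calls on Bhmt and Otc in fresh-frozen and on Bhmt and Prodh in 18 h pieces held under all alternatives run, as did 20 of 23 calls between 18 h and fresh-frozen and 12 of 14 between 3 wk and fresh-frozen controls, while 0 of 5 furan calls at 3 wk did. With 1 model of all 6 groups, fresh-frozen furan calls went from 2 rises and 5 falls to 1 and 2, 18 h falls from 7 to 2, and 3 wk calls from 1 rise and 4 falls to 2 and 12. Over all genes that model called 56 rises and 82 falls in fresh-frozen, 91 and 134 in 18 h and 1037 and 993 in 3 wk pieces, against 1132 and 1030, 503 and 574, and 36 and 63. With DESeq2 there were 8 rises at 18 h (694 over all genes) and 2 rises and 11 falls at 3 wk (97 and 256). Thinning left 1 rise in fresh-frozen livers (367 over all genes). A filter at 5 CPM and robust dispersions each gave 7 rises at 18 h (510 and 531 over all genes). Robust dispersions gave 2 rises at 3 wk (44 over all genes). On animals with a fresh-frozen library there were 3 falls at 18 h and 1 at 3 wk (309 and 6 over all genes). Without the 2 shallowest 3 wk libraries, chosen after seeing the data, there were 0 rises and 0 falls at 3 wk. Over all genes 9 rises and 3 falls were left there. Genes higher at 3 wk than in fresh-frozen controls numbered 1, and 2 with DESeq2, a filter at 5 CPM, 1 model or thinning. Over all genes these settings called 2098, 1823, 2708 and 1649 higher, against 1605. Why these counts differ was not tested, beyond the fewer samples or counts that some of them use.

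Leaving out each library gave 1 to 2 rises and 1 to 6 falls in fresh-frozen, 3 to 5 and 4 to 7 in 18 h, and 0 to 1 and 1 to 5 in 3 wk furan comparisons. Over all genes the rises ran from 508 to 865 and the falls from 356 to 755 in fresh-frozen livers. They ran from 298 to 605 and 335 to 680 at 18 h, and from 11 to 70 and 6 to 103 at 3 wk. Between FFPE and fresh-frozen controls, leaving out each library gave 7 to 11 rises and 13 to 14 falls at 18 h, and 0 to 2 and 12 to 16 at 3 wk. Over all genes 4081 to 4558 were higher and 4030 to 4741 lower at 18 h, and 997 to 2042 and 969 to 2356 at 3 wk. With the animal as a replicate block, 12 genes were higher and 15 lower at 18 h, and 2 and 16 at 3 wk. On the same animals with no replicate block, chosen after seeing the data, the counts were 8 and 14, and 2 and 13. Over all genes that fit called 4377 and 4324 at 18 h, and 1632 and 1944 at 3 wk. Both interactions called 0 of the 34 genes with and without the replicate block.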
